A study of Bos grunniens with 3 samples.

Results

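The inner root sheath keratins are described here as 5 genes, *KRT71* (ENSBGRG00000001131), *KRT73* (ENSBGRG00000001290), *KRT25* (ENSBGRG00000016734), *KRT27* (ENSBGRG00000016581) and *KRT28* (ENSBGRG00000016455), taken by symbol from a gene list of 26924 genes on which each had 1 row. Their levels, their detection together in the same cell and their spread over cells were measured in 3 single-cell libraries. The libraries were made from scapular skin of healthy Tianzhu white yak (*Bos grunniens*) of about 2 years. There was 1 library each from anagen, the growth phase of the hair cycle, from catagen, its regression phase, and from telogen, its resting phase. The paper on these data describes anagen and catagen only and reports no telogen library. The skin was digested with dispase, single follicles were pulled out and their cells were released with trypsin. The labels name no genotype and no treatment, and they do not say how many animals entered a library. The stage rests on the title and stage label of each library, since the protocol text of the catagen library names anagen.

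Keratins build the intermediate filaments of epithelial cells, and each filament is made of pairs of a type I and a type II chain. The inner root sheath is the sleeve of Henle's layer, Huxley's layer and cuticle that surrounds and shapes the growing hair shaft, and it hardens before the shaft does. *KRT71* and *KRT73* are type II chains, *KRT25*, *KRT27* and *KRT28* are type I chains, and all of them are known from this sheath. In the human follicle *KRT73* is known from the sheath cuticle, as are the related *KRT72* and *KRT26*.

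The kept cells numbered 11987 in anagen, 12062 in catagen and 14502 in telogen, with 51537357 to 103430933 UMIs (unique molecular identifiers, each marking 1 captured RNA molecule) per library. The median was 5256, 3350 and 5583.5 UMIs per cell, and the smallest kept cell held 2404 UMIs in anagen but 500 in the other two libraries, so detection was compared after each cell was thinned to 1500 UMIs. The libraries shared 40 to 49 cell barcodes by pair, at most 0.404% of a library. With 1 library per stage no test between stages can be made, and the 95% intervals given are exact and cover counting error only. Levels are in CPM, the usual scaling of a gene's UMIs to a fixed total of all UMIs of the same cells. UMIs were counted at the 3′ end and not divided by gene length, so ratios between genes are compared across cells and not read as amounts of protein.

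Summed over all cells, the 5 keratins together stood at 1996 CPM in anagen (interval 1986 to 2006), 2309 CPM in catagen (2296 to 2322) and 981 CPM in telogen (975 to 987). *KRT71*, the type II chain known from all layers of the sheath, was at 634 CPM in anagen, 675 in catagen and 350 in telogen. *KRT25* was at 429, 773 and 309 CPM in the same order. *KRT27* was at 765, 721 and 258 CPM. *KRT28* was at 143, 127 and 56.5 CPM. *KRT73*, the other type II chain, was at 26.1, 13.9 and 6.90 CPM. Telogen was the lowest library for each gene, while anagen and catagen changed places from gene to gene.

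The telogen level was below the anagen level by 1.03 log2 units for the sum (interval -1.04 to -1.01). The log2 ratio of telogen to anagen was -1.92 for *KRT73*, -1.57 for *KRT27*, -1.33 for *KRT28*, -0.86 for *KRT71* and -0.47 for *KRT25*. Thus 4 of 5 genes were at least 1.5-fold lower in telogen, beside 21.8% of the 5733 genes with 10 CPM or more in either library, and 0 were at least 1.5-fold higher, beside 8.37%. The median log2 ratio was -1.33 over the 5 genes and -0.18 over all genes compared. Against catagen, all 5 were at least 1.5-fold lower in telogen, with log2 ratios from -1.48 for *KRT27* to -0.95 for *KRT71*, where 30.3% of 5971 genes were so, and 0 were higher, where 12.8% were so. These ratios are of 2 libraries and not of 2 stages, and in such sums fewer sheath cells and less keratin RNA per sheath cell cannot be told apart.

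Catagen and anagen differed gene by gene. *KRT25* was 1.80-fold higher in catagen (log2 ratio 0.85, interval 0.83 to 0.87), the only member at least 1.5-fold higher, beside 15.7% of 6054 genes. *KRT73* was 1.88-fold lower in catagen (log2 ratio -0.91, interval -1.03 to -0.79), the only one at least 1.5-fold lower, beside 12.5% of genes. Neither held throughout: *KRT25* was under 1.5-fold with each cell given equal weight (log2 ratio 0.28) and relative to the median gene (0.57), and *KRT73* was just under it in cells with at least 1000 detected genes (-0.58). The log2 ratio was 0.09 for *KRT71*, -0.09 for *KRT27* and -0.17 for *KRT28*. The ratio of the sum was 0.21, but it was -0.28 when each cell was given equal weight. It was -0.067 when the libraries were scaled to the median gene, which lay 0.28 higher in catagen. This median is over all genes with a UMI in both libraries, 17021 here. Over the 6054 genes with 10 CPM or more it was 0.047, below the ratios of the sum, *KRT71* and *KRT25*. The order of anagen and catagen for the sum therefore turned with equal weight per cell and with the wider median. For *KRT71* it turned with the wider median, at -0.19. The ratios were not rescaled to the median of the 6054 genes. The wider median was -0.26 for telogen over anagen and -0.51 for telogen over catagen. Over genes with 10 CPM or more it was -0.18 and -0.25. Relative to the wider median the sum stood at -0.76 and -0.72 in telogen, and each of the 5 genes stayed lower there in both comparisons.

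**Figure D1:**
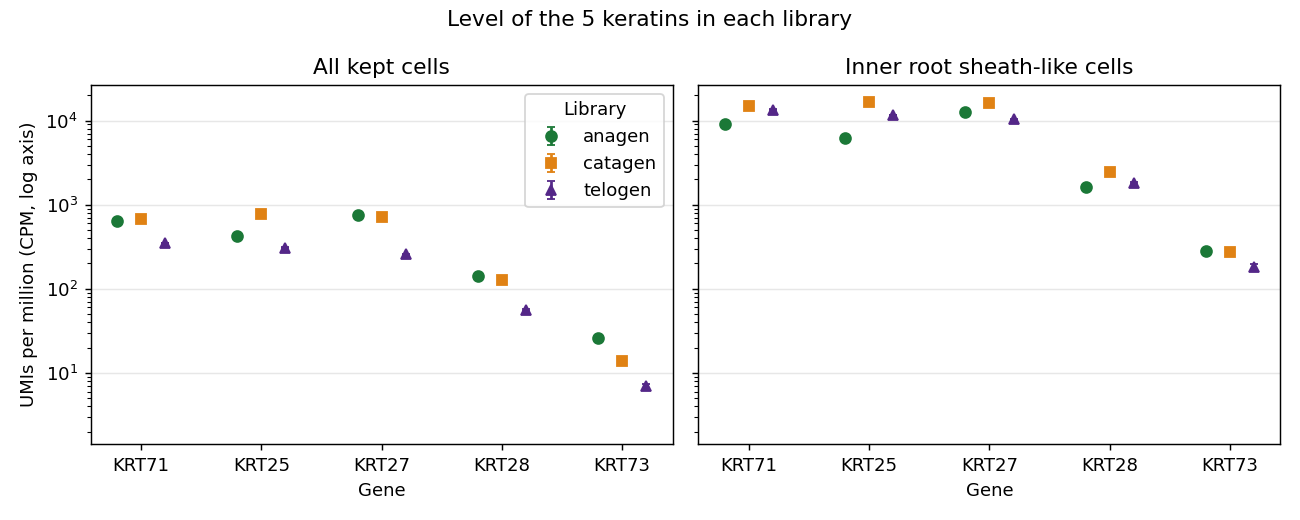
Level (CPM, log axis) of the 5 keratins in each library, over all kept cells on the left and over the inner root sheath-like cells on the right; points are the level and bars its exact 95% Poisson interval, often smaller than the point. Over all cells telogen is the lowest library for each gene, whereas in the sheath-like cells telogen lies above anagen for KRT71, KRT25 and KRT28.

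Very few cells carried the UMIs of these genes. Of all UMIs of the 5 keratins, 50% lay in the 22 richest anagen cells, the 14 richest catagen cells and the 11 richest telogen cells. The richest 1% of cells held 75.3%, 87.7% and 92.8% of the UMIs, and 51.1%, 68.9% and 78.7% after thinning. *KRT27* was the most concentrated, with 50% of its UMIs in 8, 7 and 5 cells and up to 7212, 6079 and 7931 UMIs in 1 cell. In telogen that single cell held 29.7% of the *KRT27* UMIs. *KRT28* was the most spread, with 50% of its UMIs in 82, 39 and 25 cells and at most 231, 197 and 279 in 1 cell. *KRT73*, whose richest cell held 64, 42 and 65 UMIs, reached 50% in 48, 13 and 11 cells.

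Among genes of 50 CPM or more, 1742 to 1914 per library, the 4 keratins that reached this level ranked between 4 and 15 by the share of their UMIs in the richest 1% of cells. By the variance over cells standardized for the mean, *KRT25* ranked 4 in every library, among 15796 to 16114 genes. *KRT71* ranked 5, 5 and 8, *KRT27* ranked 8, 9 and 15, *KRT28* ranked 14, 12 and 7, and *KRT73* ranked 46, 37 and 70.

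**Figure D2:**
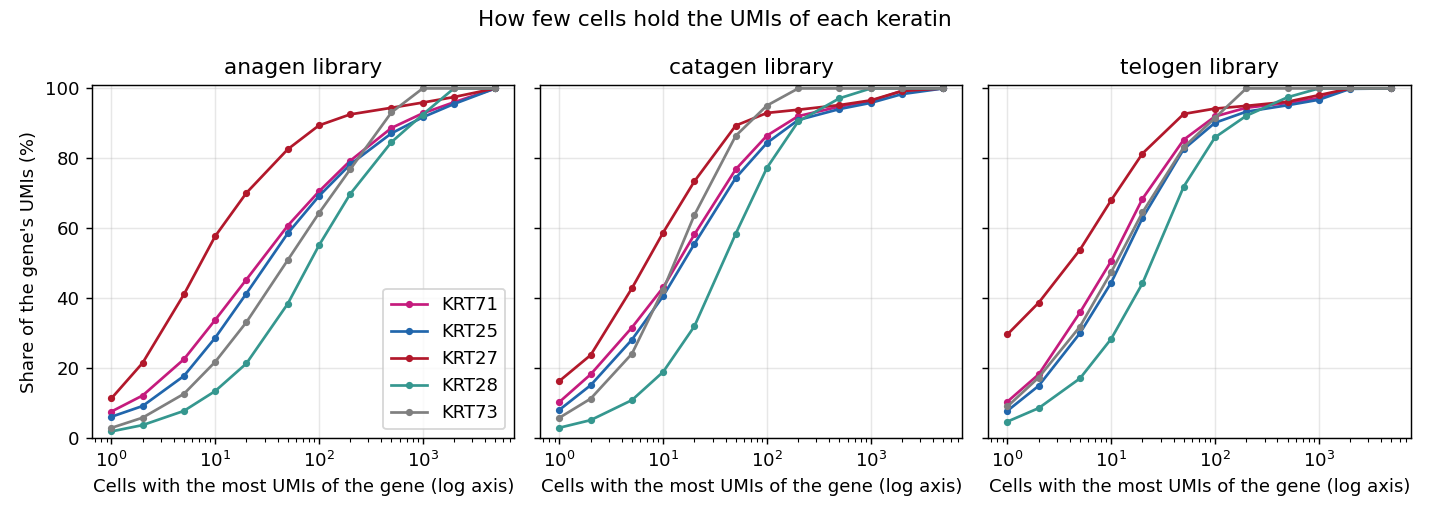
Share of the UMIs of each keratin (%, vertical axis) held by the cells with the most UMIs of that gene (number of cells, log axis), 1 panel per library. The KRT27 line rises first and the KRT28 line last up to 50 cells in each library.

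Cells with a single UMI were common and could not be read as expression. After thinning, 33.2% of anagen, 24.5% of catagen and 11.5% of telogen cells held at least 1 UMI of any of the 5 genes (65.2%, 47.1% and 34.0% without thinning). Cells with at least 2 of 5 endothelial markers should lack these genes, and 32.2% of 59 such anagen cells, 18.8% of 16 catagen cells and 12.1% of 33 telogen cells held one as well. Their median depth before thinning was 3935, 2464 and 4455 UMIs. The shares over all cells lay within the intervals of the endothelial shares (20.6 to 45.6%, 4.05 to 45.6% and 3.40 to 28.2%), so they are not read as expression. These intervals are wide because they rest on few cells, and the shares over all cells include the cells rich in these genes. How much of the shares is background therefore cannot be told from them. One anagen cell with endothelial markers held 856 of the 905 keratin UMIs in that group, and without it the group stood at 142 CPM, beside 104 CPM in catagen and 60.9 CPM in telogen, each also without its richest cell.

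By gene, the share of thinned cells with a UMI was 16.1%, 9.50% and 4.44% for *KRT71*, 13.9%, 11.2% and 5.004% for *KRT25* and 12.0%, 8.50% and 3.40% for *KRT27*. It was 7.77%, 3.41% and 1.83% for *KRT28* and 2.36%, 0.571% and 0.354% for *KRT73*. No endothelial cell held a *KRT73* UMI after thinning, where a limit of 3 counts in so few cells allows shares of up to 5.08%, 18.8% and 9.09%.

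The 5 genes were nevertheless found together. Of thinned cells with a *KRT71* UMI, 39.3% in anagen (interval 37.1 to 41.6%), 33.4% in catagen (30.4 to 36.5%) and 30.7% in telogen (26.8 to 34.9%) also held *KRT25*, the type I chain most often detected. Among thinned cells without *KRT71*, only 9.01%, 8.89% and 3.81% held *KRT25*. Relative to shares over all cells, the highest of the 10 pairs was *KRT73* with *KRT28*. Of *KRT73* cells, 53.4%, 62.5% and 58.5% held *KRT28*, which is 6.87, 18.3 and 31.9 times its share over all cells. The ratio is high partly because *KRT28* has a low share over all cells. Of *KRT73* cells, 64.3%, 66.1% and 53.7% held *KRT71* and 53.4%, 66.1% and 58.5% held *KRT25*. The *KRT28* share was thus no higher than the *KRT25* share in any library. *KRT27* was found in 27.9%, 32.1% and 34.1% of the *KRT73* cells, 2.34, 3.78 and 10.1 times its share over all cells. The *KRT73* shares rest on 283, 56 and 41 cells.

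After thinning, 22.2% of anagen, 19.0% of catagen and 9.50% of telogen cells held 1 of the 5 genes, and 66.8%, 75.5% and 88.5% held none. Of the positive cells 66.8%, 77.8% and 82.6% held 1 gene only, but 51.1%, 48.2% and 44.5% did where a gene counted from 2 UMIs. All 5 were detected in 44, 17 and 11 cells.

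To ask where the genes are found, the cells of all 3 libraries were clustered with the 5 genes left out of the variable genes. Of 27 clusters, 1 took the name inner root sheath-like from *GATA3*, *KRT72*, *KRT26*, *PADI1*, *CDSN* and *DLX3*, which were raised in it, with *PADI1* among its 10 leading genes. *TCHH*, *KRT74*, *PADI3*, *TGM3* and *TCHHL1*, the other genes of that list, had no row by symbol. The cluster held 419 anagen, 217 catagen and 108 telogen cells, which is 3.50% (interval 3.17 to 3.84%), 1.80% (1.57 to 2.05%) and 0.745% (0.611 to 0.898%) of the cells. The anagen share depended on the clustering, with 6.28% at resolution 1.2 and 13.5% without integration, where catagen had 2.06% and 1.79% and telogen 0.945% and 0.834%. It held 83.1%, 89.8% and 88.7% of all UMIs of the 5 keratins. The part that the higher minimum of 2404 UMIs per anagen cell has in these shares was not tested.

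In the inner root sheath-like cells the summed level was 30018 CPM in anagen, 50792 CPM in catagen and 37455 CPM in telogen. The highest level of any other class or unnamed cluster in any library was 1663 CPM, in the catagen cells of a cluster with a low median of 1021 UMIs per cell. By library its median was 3870.5 UMIs in anagen, 743 in catagen and 1005 in telogen. It is called the low-UMI cluster below for its catagen and telogen cells, and its anagen cells were not so shallow. The next class by its median over the libraries was mitotic-like, at 926, 811 and 280 CPM. The low-UMI cluster followed, at 591, 1663 and 504 CPM, above mitotic-like cells in catagen and telogen. S phase-like cells came next, at 373, 459 and 282 CPM, and then hair cortex and cuticle-like cells, at 346, 326 and 346 CPM. Bulge and outer root sheath-like cells were at 217, 226 and 72.7 CPM, basal epidermis-like cells at 162, 157 and 54.8 CPM, and differentiated interfollicular epidermis-like cells at 193, 112 and 52.9 CPM. Apart from the inner root sheath-like class, whose lowest library lay above the highest of every other class, all neighbours in this order overlapped in their range over the 3 libraries, other than the low-UMI cluster and the S phase-like class. The endothelial cells, without the richest cell of each library, had the 142, 104 and 60.9 CPM given above.

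The members differed in where they came second. In mitotic-like cells *KRT71* was at 395, 254 and 107 CPM, *KRT25* at 224, 327 and 107 CPM and *KRT28* at 183, 173 and 37.9 CPM, the second highest class for each by the median over libraries. *KRT27* was at 89.6, 41.3 and 24.1 CPM there, place 13 of 22, near its 70.8, 76.5 and 19.0 CPM in bulge and outer root sheath-like cells. That class joins clusters of unlike level. Its cluster of 1214 anagen cells had *KRT27* at 158 CPM (interval 147 to 169), place 4 of 27 clusters in anagen, where the median cluster was at 64.9 CPM. No mitotic-like cluster was among the 4 highest for *KRT27* in catagen or telogen. *KRT73* was second in hair cortex and cuticle-like cells, at 26.6, 21.4 and 60.9 CPM, against 281, 273 and 180 CPM in the inner root sheath-like cells. For *KRT27* place 2 was the unnamed low-UMI cluster, at 108, 466 and 111 CPM. That cluster held place 3 for *KRT71*, *KRT25* and *KRT73* and place 6 for *KRT28*. It was at 183, 529 and 182 CPM for *KRT71* and 211, 551 and 161 CPM for *KRT25*, above mitotic-like cells in catagen and telogen. For *KRT73* it was at 37.5, 22.6 and 7.14 CPM, above hair cortex and cuticle-like cells in anagen and catagen.

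**Figure D3:**
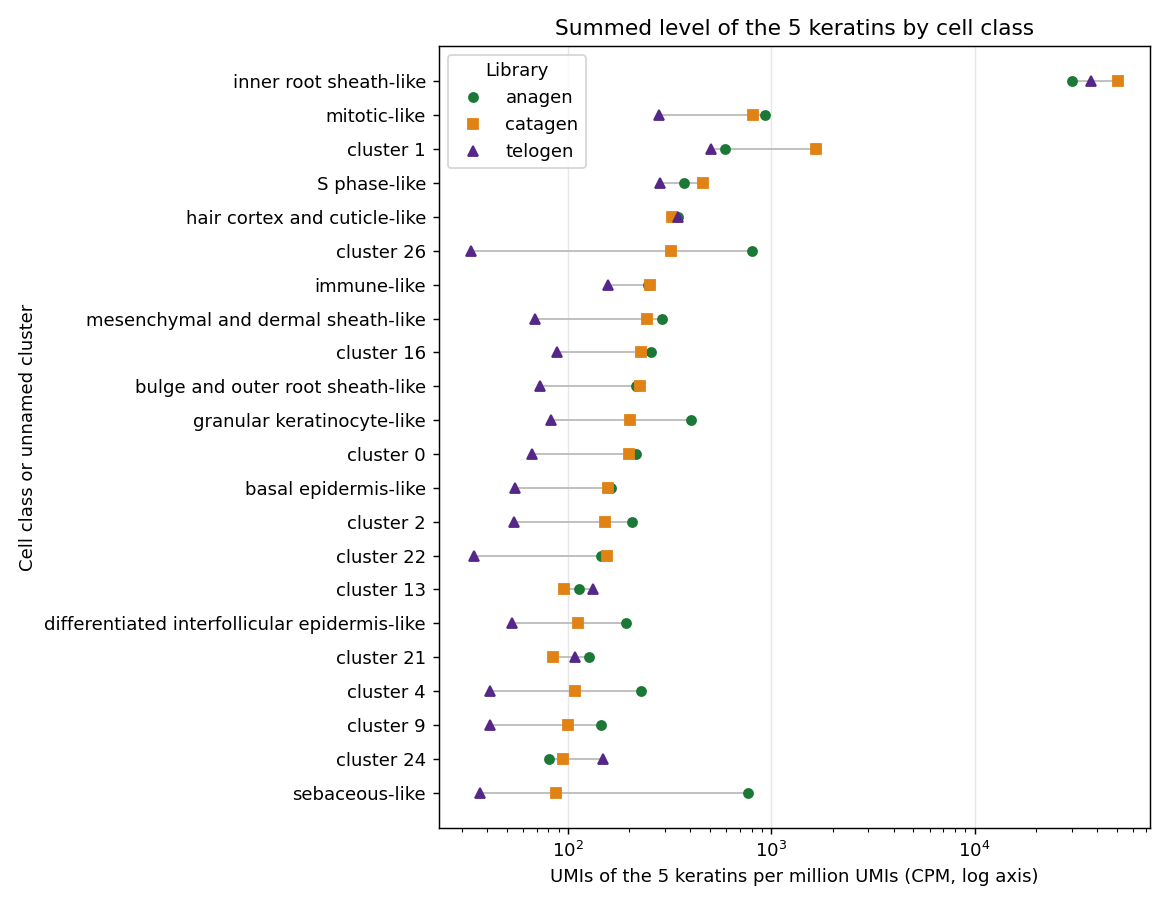
Summed level of the 5 keratins (CPM, log axis) in each cell class or unnamed cluster, 1 point per library and a grey line over their range, ordered by the median. The inner root sheath-like class lies between 30018 and 50792 CPM and every other point at or below 1663 CPM.

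Within the sheath-like cells the order of the libraries was not that of the sums over all cells. The summed level was higher in telogen than in anagen by 0.32 log2 units (interval 0.31 to 0.33) and higher in catagen than in anagen by 0.76 (0.75 to 0.77). These intervals cover counting error only, and few cells weighed heavily in the sums. The richest cell held 10883 of 137281 keratin UMIs of the class in anagen, 8932 of 106911 in catagen and 14011 of 89934 in telogen. The ratios were not measured without these cells. The median summed level per cell was 7704, 15922 and 17056 CPM. *KRT71* stood at 9247 CPM in anagen, 14868 in catagen and 13445 in telogen. *KRT25* stood at 6246, 16829 and 11689 CPM, the widest contrast among the members, with catagen 2.69-fold above anagen. *KRT28* stood at 1636, 2466 and 1812 CPM. *KRT27*, at 12608, 16355 and 10328 CPM, and *KRT73*, at 281, 273 and 180 CPM, were lowest in telogen. For *KRT27* this turned when each cell was given equal weight, at a mean of 8438, 9489 and 9716 CPM per cell, and the sum was then at 21373, 33446 and 33250 CPM. The anagen level depended on where the cluster was drawn. Without integration of the libraries the class grew to 1616 anagen cells, and its summed level was 14871 CPM, while catagen and telogen stayed at 50136 and 35521 CPM.

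Depth also differed. The median sheath-like cell held 7066 UMIs in anagen, 7742 in catagen and 15668 in telogen, against 5229, 3314 and 5556.5 UMIs for all other cells. After thinning to 1500 UMIs, *KRT71* was detected in 86.2%, 91.5% and 96.2% of sheath-like cells, *KRT25* in 82.6%, 92.0% and 96.2%, *KRT28* in 61.6%, 66.8% and 64.4%, *KRT27* in 49.2%, 50.3% and 60.6%, and *KRT73* in 23.2%, 17.6% and 18.3%. In the endothelial cells the shares were 11.9%, 6.25% and 6.06% for *KRT71* and 6.78%, 0% and 0% for *KRT28*, while the *KRT73* share in catagen was no higher than the 18.8% that 0 of 16 endothelial cells allows. A sheath-like cell most often held 3 of the 5 genes in anagen (41.5%) and catagen (36.7%), and 4 of 5 in telogen (40.4%). All 5 were detected in 6.44%, 7.54% and 9.62% of them.

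*KRT27* was uneven within the class. Its median was 2 UMIs per cell in anagen, 2 in catagen and 13.5 in telogen. The median for *KRT71* was 20, 30 and 75 UMIs. Of the *KRT27* UMIs of the class, 50% lay in 7, 6 and 4 cells.

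The split of UMIs between *KRT71* and *KRT25*, a type II and a type I chain, was followed from bin to bin. Cells with at least 10 UMIs of *KRT71* and *KRT25* together were placed in 5 bins by the share of their UMIs that came from these 2 genes, a grouping chosen after their values had been seen. The lowest bin was under 0.5% and the highest 5% or more. Over the 5 bins *KRT71* made up between 56.2 and 65.6% of the pair's UMIs in anagen, 42.1 and 48.2% in catagen and 46.1 and 57.5% in telogen. The course was not steady. The largest value was in the highest bin of each library. The smallest was at 1 to 2% in anagen and telogen and in the lowest bin in catagen.

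The level of *KRT27* rose with the share of the pair. It was at 506 CPM in the lowest anagen bin (329 cells), then 1789, 7038 and 31716 CPM at 2 to 5% (58 cells). In catagen it went from 168 over 664 and 2590 to 17101 CPM, and in telogen from 203 over 1731 and 4896 to 11108 CPM. Per 100 UMIs of *KRT71* and *KRT25* this was 23.4, 26.7, 47.0 and 102 in anagen, 6.53, 9.50, 18.7 and 53.0 in catagen and 9.56, 24.6, 32.0 and 33.5 in telogen. These ratios are summed over the cells of a bin, and the median cell lay lower. In anagen the median cell was at 2.27, 9.82, 26.8 and 41.3 per 100. In the lowest bin of catagen and of telogen it was at 0. *KRT27* was thus higher at 2 to 5% than under 0.5% relative to the pair as well. In the highest bin, of 14, 33 and 14 cells, *KRT27* summed over cells was at 93.8, 59.1 and 53.2 per 100. The median cell there was at 85.4, 39.5 and 27.1 per 100, above the median cell at 2 to 5% in each library.

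*KRT28* did not rise with the pair throughout. Its level was 985, 2151, 1842 and 1475 CPM over the same 4 bins in anagen, 1107, 3042, 3339 and 3170 CPM in catagen and 797, 1897, 2077 and 1954 CPM in telogen, with 109, 1115 and 1460 CPM in the highest bin. Per 100 UMIs of the pair it went from 45.5 to 4.74 in anagen between the lowest bin and that at 2 to 5%, from 43.0 to 9.82 in catagen and from 37.5 to 5.89 in telogen. The pair is both the divisor of these ratios and the measure the bins were made by, so a gene at a constant level falls in them too.

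*KRT73* was highest at 0.5 to 1% and lower beyond. It was at 250, 361, 74.5 and 27.4 CPM over the 4 bins in anagen, 240, 507, 287 and 78.7 CPM in catagen and 195, 288, 171 and 47.9 CPM in telogen. The highest bin held 5, 6 and 7 *KRT73* UMIs in all.

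*KRT27* and *KRT28* changed places from cell to cell. The number of cells with more *KRT28* than *KRT27* UMIs was 227 of 329 in the lowest anagen bin and 9 of 58 at 2 to 5%. It was 68 of 95 and 8 of 31 in catagen, and 65 of 84 and 8 of 24 in telogen.

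**Figure D4:**
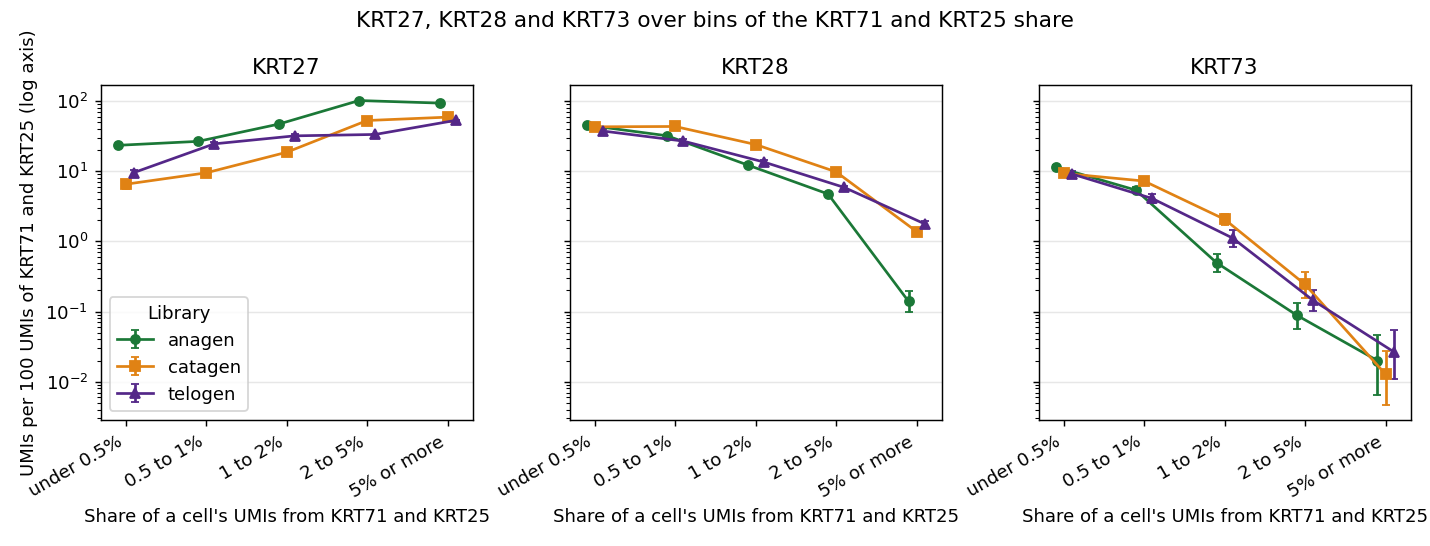
UMIs of KRT27, KRT28 and KRT73 per 100 UMIs of KRT71 and KRT25 (log axis), over bins of the share of a cell's UMIs from KRT71 and KRT25, for cells with at least 10 UMIs of these 2 genes; points are summed over the cells of a bin and bars are exact 95% Poisson intervals. KRT27 is higher and KRT28 and KRT73 are lower at 2 to 5% than under 0.5%, in each of the 3 libraries. A gene at a constant level would fall as well because the pair is the divisor. In CPM, KRT73 is lower and KRT28 higher at 2 to 5% than under 0.5%.

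The lower bins were mixed. Of the cells under 0.5%, 37.1% in anagen, 29.5% in catagen and 30.95% in telogen lay in the inner root sheath-like cluster, against 91.4%, 96.8% and 91.7% at 2 to 5%. Their median depth was high, at 11196, 9505 and 16003.5 UMIs. The rule itself selects for this, since at least 10 UMIs of the pair at so low a share require a deep cell. Within the sheath-like cluster alone, a split added after seeing the data, the directions were the same: *KRT28* went from 55.4 to 4.75 per 100 in anagen between the lowest bin and that at 2 to 5%, from 71.3 to 9.83 in catagen and from 47.2 to 5.91 in telogen. *KRT73* went from 16.2 to 0.0777, from 19.98 to 0.234 and from 10.1 to 0.145 there, and *KRT27* from 27.1 to 103, from 7.11 to 53.1 and from 10.6 to 33.5. The pair is the divisor here as well, so the lower ratios of *KRT28* and *KRT73* are not themselves read as lower levels. Over all cells of these bins, the level in CPM given above was lower at 2 to 5% than under 0.5% for *KRT73* and higher for *KRT28*.

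Other genes differed over the same bins, taken over all their cells and not split by cluster. The summed level of 4 mitotic genes went from 1783 to 73.9 CPM in anagen between the lowest bin and that at 2 to 5%, from 3144 to 207 CPM in catagen and from 1231 to 94.4 CPM in telogen. *KRT14*, the type I chain of basal keratinocytes, went from 2652 to 922, from 1805 to 164 and from 4764 to 985 CPM. *PADI1*, an enzyme that converts arginine in proteins to citrulline, went from 49.4 to 234, from 28.7 to 711 and from 49.4 to 300 CPM. *DLX3*, a homeobox factor of the hair follicle, lay between 337 and 652 CPM in all bins. From the lowest bin to the highest it went from 464 to 550 CPM in anagen, from 353 to 652 CPM in catagen and from 337 to 611 CPM in telogen. *GATA3*, a factor of the sheath lineage, was lowest in the highest bin of each library, at 9.37, 39.5 and 31.3 CPM, and stood between 45.3 and 186 CPM in the others.

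**Figure D5:**
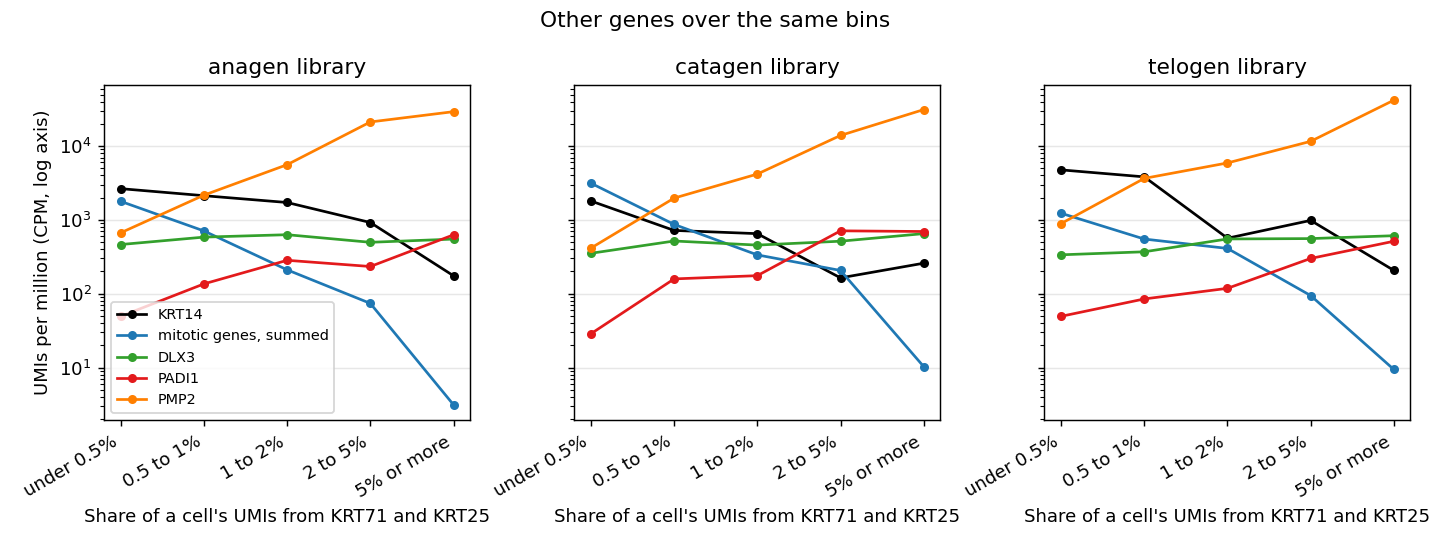
Level (CPM, log axis) of KRT14, PADI1, DLX3, PMP2 and the summed mitotic genes over the same bins, 1 panel per library, with no error drawn. The mitotic genes fall and PMP2 rises from left to right in each library. DLX3 lies between 337 and 652 CPM and is higher in the last bin than in the first in each library.

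Cells chosen for 10 or more *KRT73* UMIs numbered 46 in anagen, 22 in catagen and 20 in telogen. They were deep, with a median of 17061.5, 11493 and 23254 UMIs, and detection in them was counted without thinning. All of these cells held *KRT28*, *KRT71* and *KRT25*. Their median was 45.5, 74 and 64.5 *KRT28* UMIs, and *KRT28* exceeded *KRT73* in 39, 21 and 19 of them. Their median *KRT27* count was 4, 12.5 and 5 UMIs, and *KRT27* was detected in 38, 17 and 15 of them. Of these cells 39, 20 and 15 lay in the inner root sheath-like cluster. The shaft keratin *KRT85* was detected in 35, 5 and 14 of them, at 835, 175 and 1158 CPM, and exceeded *KRT73* in 5, 1 and 7. It was at 972, 454 and 295 CPM in all cells with under 1% of their UMIs from the 5 keratins. That group takes in hair cortex and cuticle-like cells, in which *KRT85* was the first leading gene, so it is no baseline for cells outside the shaft. The part of *KRT85* in the result was not tested.

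Cells chosen for 100 or more *KRT27* UMIs numbered 69, 46 and 30, and 67, 46 and 30 of them lay in that cluster. They too were deep, with a median of 17430, 13919.5 and 22017 UMIs, and were not thinned. *KRT73* was detected in 15, 6 and 9 of them, and *KRT28* in 47, 32 and 23, with a median of 3, 11 and 12.5 *KRT28* UMIs. The *KRT28* count was above the *KRT27* count in 2 anagen cells and in none of the catagen and telogen cells. The choice of cells nearly fixes this, so nothing is read from it. Only 12, 9 and 13 cells of the whole libraries held 100 or more *KRT28* UMIs. *KRT27* and *KRT28* are related type I genes, and how reads matching both were counted is not given in the sources used here. In the highest anagen bin 23501 *KRT27* UMIs lay beside 35 *KRT28* UMIs.

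A second grouping took all cells with 1% or more of their UMIs from the 5 genes, 224 in anagen, 154 in catagen and 82 in telogen. This cuts a continuous range and is no cell type: 44, 24 and 19 cells lay between 0.8 and 1%, and 27, 13 and 12 between 1 and 1.2%. Of these cells 178, 142 and 68 were in the inner root sheath-like cluster. All cells with 1% or more held 90.9%, 93.0% and 92.9% of the *KRT27* UMIs, but 42.5%, 71.5% and 63.9% of the *KRT28* and 26.7%, 67.6% and 42.4% of the *KRT73* UMIs. The cells were chosen by the summed share, of which *KRT27* makes up 44.5%, 32.98% and 28.7% there and *KRT73* under 0.5%, so nothing is read from the order of these shares.

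Type II chains made up 30.98% of the 5-gene UMIs in these cells in anagen (interval 30.7 to 31.2%), 29.6% in catagen (29.3 to 29.9%) and 35.9% in telogen (35.6 to 36.3%). *KRT73* gave 0.445%, 0.462% and 0.350%, so the type II share was almost wholly *KRT71*. Cell by cell the type II share had a median of 34.5%, 31.6% and 35.1% and an SD of 15.8, 12.7 and 17.4 percentage points. That is 3.34, 2.42 and 3.01 times the SD that counting alone would give.

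Across these cells, log2 levels (UMIs scaled to the depth of the cell, with 1 added) of *KRT71* and *KRT25* had a Pearson correlation of 0.81 in anagen (n = 224 cells), 0.72 in catagen (n = 154) and 0.65 in telogen (n = 82). *KRT25* and *KRT27* had 0.64, 0.68 and 0.59, and *KRT71* and *KRT27* had 0.41, 0.51 and 0.28. *KRT28* and *KRT73* had 0.49, 0.47 and 0.48, and *KRT27* and *KRT28* had -0.45, -0.41 and -0.28. *KRT28* was also negative with *KRT71* (-0.44, -0.39 and -0.35) and *KRT25* (-0.43, -0.41 and -0.17). The values of *KRT73* with *KRT71*, *KRT25* and *KRT27* were negative in each library. Cells of 1 library share depth, free RNA and the cut on the 5-gene share, which itself shapes these values, so they are given as a description.

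Of the 6 other inner root sheath genes with a row, 5 in anagen, 6 in catagen and 5 in telogen were at least 1.5-fold higher in the cells with 1% or more than in all other cells, with the lower end of the interval past that fold. Of the 17791 to 17992 other genes with a UMI, 2.73% in anagen, 3.45% in catagen and 4.04% in telogen were so, and 10.0%, 9.31% and 8.16% were lower by the same rule, which genes with few UMIs cannot pass. *PADI1* was at 313, 485 and 288 CPM against 5.48, 2.96 and 1.91 CPM. *DLX3* was at 552, 538 and 551 CPM against 129, 63.0 and 45.6 CPM. *GATA3* was at 54.2, 122 and 79.9 CPM against 30.8, 51.2 and 20.5 CPM. Its anagen log2 ratio of 0.81 had an interval of 0.56 to 1.06, the one that did not pass in that library.

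*KRT72*, a type II chain of the sheath cuticle, and *KRT26*, its type I counterpart there, were rare. *KRT72* had 67, 133 and 32 UMIs in all and *KRT26* had 93, 542 and 49. In the cells with 1% or more they were at 17.3, 72.4 and 13.0 CPM and at 28.3, 310 and 26.6 CPM, and in all other cells no higher than 0.321 and 0.821 CPM. Single cells decided much of this: 184 of the 542 catagen *KRT26* UMIs and 30 of the 49 telogen ones lay in 1 cell each. *KRT72* and *KRT73*, both type II, were seen together in 14 of 34, 12 of 31 and 7 of 16 cells with *KRT72*. *KRT73* was seen in fewer of the cells with *KRT26*, in 8 of 40, 5 of 62 and 4 of 12. *CDSN*, the corneodesmosin gene, was at 8.65, 48.9 and 3.55 CPM against 2.25, 5.51 and 3.24 CPM, and in telogen its interval spanned no difference.

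Of the 34 other keratin genes by symbol, 15 in anagen, 14 in catagen and 13 in telogen were at least 1.5-fold lower in the keratin-rich cells, interval included, and 4, 4 and 3 were at least 1.5-fold higher. *KRT72*, *KRT26* and *KRT24* were higher in all 3 libraries and *KRT23* in anagen and catagen; *KRT24* and *KRT23* were named after their values had been seen. Only *KRT14* reached 1000 CPM in these cells, at 1241 CPM in anagen against 10899 CPM in all other cells. It was at 339 against 12113 CPM in catagen and 651 against 20612 CPM in telogen. All 5 basal epidermis genes and all 6 bulge and outer root sheath genes were at least 1.5-fold lower in each library. By the same rule 4, 3 and 3 of 4 mitotic genes, 4, 3 and 3 of 5 S phase genes, 4, 4 and 5 of 5 genes of the differentiated interfollicular epidermis and 2, 2 and 1 of 2 companion layer genes were lower and none of them higher, so nothing is read as particular to the keratins. The endothelial genes summed to 2.36, 0.619 and 0 CPM.

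Likeness to other genes was measured by correlation over cells. Among 5725 genes in at least 1% of thinned cells in each library, *PMP2*, which encodes a fatty acid-binding protein known from myelin, had the highest mean correlation of the genes with a symbol named for each of the 5 members. Its mean Pearson correlation over the 3 libraries was 0.53 with *KRT71*, 0.53 with *KRT25*, 0.53 with *KRT27*, 0.37 with *KRT28* and 0.14 with *KRT73*. *CTSH*, the protease cathepsin H, followed with 0.38, 0.38, 0.34, 0.32 and 0.11. The third was *FGF2*, a growth factor, for *KRT71* (0.25) and *KRT25* (0.23), and *DLX3* for *KRT27* (0.16), *KRT28* (0.20) and *KRT73* (0.10). A gene without a symbol, ENSBGRG00000003029, ranked above them for *KRT71* (0.63), *KRT25* (0.62) and *KRT27* (0.59). By Spearman *CTSH* lay above *PMP2* for *KRT71* (0.20 against 0.19) and *KRT28* (0.24 against 0.19), as it did for *KRT28* at 3000 UMIs (0.44 against 0.43). The values for *KRT73* are too weak in such sparse counts to be read as a likeness.

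*PMP2* was at 13118 CPM in the anagen cells with 1% or more, 15647 CPM in catagen and 15165 CPM in telogen, against 112, 65.4 and 78.2 CPM in all other cells. Over the bins of the *KRT71* and *KRT25* share it went up with *KRT27*, from 669 to 21255 CPM in anagen between the lowest bin and that at 2 to 5%, from 415 to 13954 CPM in catagen and from 892 to 11610 CPM in telogen. *CTSH* went from 234 to 1178, from 177 to 1452 and from 94.5 to 671 CPM. *FGF2*, in contrast, was highest at 0.5 to 1% in catagen and telogen, at 296 and 373 CPM, and at 1 to 2% in anagen, at 395 CPM.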

How the data were processed

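The authors deposited 1 matrix of UMI counts per library, as whole numbers per gene and cell barcode and without normalization. Per the file headers, Cell Ranger 4.0.0 (anagen), 3.1.0 (catagen) and 6.0.2 (telogen) wrote them, whereas the submitters' processing notes name version 2.1.1. The genome build is not given in the sources used here, so no coordinates or sequences are given. A minimum of 200 detected genes per cell removed 13 cells from anagen, 62 from catagen and 71 from telogen.

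UMIs were summed to CPM, and intervals are exact Poisson, Clopper-Pearson or conditional binomial at 95%. For detection, cells were thinned to 1500 UMIs, which left out 0, 2263 and 2932 shallower cells. Clusters came from Seurat 5.3.0 in R 4.3.3, by anchors over the 3 libraries on 1995 variable genes without the members, with 30 components, 20 neighbours and resolution 0.8. A cluster was named where at least 3 markers of a list were raised 1.5-fold and 1 was among its 10 leading genes, a scoring chosen after the counts had been seen. No doublets were removed. Scrublet (scanpy 1.11.5) called 0 cells in each library, so it had not worked, and the 5% of cells with the highest scores were left out as an alternative. Scripts ran in Python 3.11.15 and were tested on simulated data.

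The members, marker lists and tests were chosen with earlier results of these data known. Besides the members, the genes named are the other inner root sheath genes with a row, the 3 genes with a symbol most correlated with each member, and other keratins with at least 1000 CPM in cells with 1% or more of their UMIs from the members.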

Additional observations from a re-analysis of the deposited data

How the results depend on the processing

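No paired analysis was possible because each stage is 1 library, and no library could be left out for the same reason. Of 104 alternative values of the chief results 47 stayed within their counting interval and 57 moved past it, and the cause was not tested. In order, catagen over anagen, telogen over anagen and telogen over catagen, the log2 ratio of the summed keratins was 0.51, -0.95 and -1.46 in cells with at least 1000 genes, 0.33, -0.997 and -1.33 in cells with at least 2404 UMIs, -0.28, -1.37 and -1.09 as a mean over cells, and -0.067, -0.76 and -0.72 by median-of-ratios scaling. With the highest 5% of Scrublet scores left out, the telogen ratios were -0.99 and -1.20. Members at least 1.5-fold higher in catagen than anagen numbered 0 by the mean over cells and by median-of-ratios scaling, and members at least 1.5-fold lower numbered 0 with at least 1000 genes and 2 by the mean over cells. At least 1.5-fold lower in telogen than catagen were 3 by median-of-ratios scaling. The share of all genes past the fold was not measured under these alternatives, so these counts are not read as a result about the members. In anagen, catagen and telogen, the share of cells with a keratin UMI was 44.4%, 34.2% and 17.0% at 3000 UMIs, 65.2%, 47.1% and 34.0% without thinning and 13.1%, 6.75% and 2.53% from 2 UMIs. The share of *KRT71* cells with *KRT25* was 55.3%, 72.9% and 69.9% from 2 UMIs, 45.4% in anagen and 23.8% in telogen without thinning, and 38.7% in catagen at 3000 UMIs. The share of UMIs in the richest 1% of cells was 75.3%, 87.7% and 92.8% without thinning, and 67.2% in catagen and 83.0% in telogen with at least 1000 genes. The type II share was 31.9% in anagen and 36.3% in telogen from 0.5% of UMIs, 30.3% in anagen from 2%, and 33.1% and 36.4% in anagen and telogen over all cells. The level in inner root sheath-like cells was 27660 CPM in anagen and 37188 CPM in telogen at resolution 0.4, 24184 CPM, 49007 CPM and 34784 CPM at 1.2, 26900 CPM, 49231 CPM and 35266 CPM with the 5 genes kept, and 14871 CPM, 50136 CPM and 35521 CPM without integration. The correlation of *KRT71* with *PMP2* was 0.19 by Spearman and 0.55 at 3000 UMIs. Of 45 values by bin, 2 moved when the highest Scrublet scores were left out, an alternative added after seeing the data.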

Other observations

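Genes of other lists stood out in the cells with 1% or more of their UMIs from the 5 keratins, and those named here were chosen after their values had been seen. *ELOVL3*, an enzyme that lengthens fatty acids and was listed as a sebaceous gene, was at 296 CPM in anagen, 526 CPM in catagen and 154 CPM in telogen, against 102, 7.87 and 57.8 CPM in all other cells. On that list 3, 1 and 4 of 5 genes were at least 1.5-fold higher, interval included, and *PLIN2*, a coat protein of lipid droplets, was lower by that rule in anagen and telogen but not in catagen, at 12.6, 10.5 and 12.4 CPM against 32.4, 23.0 and 43.3 CPM. *MSX2*, a homeobox factor listed with the hair cortex and cuticle, was at 20.8, 27.2 and 21.3 CPM against 10.3, 6.55 and 2.99 CPM. On that list 1, 1 and 2 of 7 genes were at least 1.5-fold higher and 3, 3 and 2 were lower. The shaft keratin *KRT85* on the same list was at 216, 34.6 and 68.6 CPM against 972, 454 and 295 CPM. Those other cells include the hair cortex and cuticle-like cells.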
